A study of Mus musculus with 2 samples.

Results

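Arginine is used by tumor myeloid cells through competing routes, and 6 genes of these routes are described here across the monocytes and macrophages of MC38 tumors. They are Arg1, Nos2, Slc7a2, Ass1, Odc1 and Gatm, chosen by their symbol from the 32285 genes of the count tables, and all 6 were found. CD45+ leukocytes were isolated from tumors of MC38, a colon carcinoma line of the mouse, in hosts whose genotype is labelled WT, and profiled by droplet RNA sequencing of single cells. The Control library came from tumors that were not irradiated, and the IR library from tumors collected 4 days after a single dose of 20 Gy of local ionizing radiation. Each library held cells pooled from several tumors, so each group was 1 library, a test across animals could not be made, and all intervals below cover counting error only. The sample labels also carry a narrower gate, CD45+CD11b+Ly6Chi, but T cells, NK cells and dendritic cells were present in both libraries, as in a CD45+ sort.

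Arginine enters macrophages mainly through the cationic amino acid transporter encoded by Slc7a2. Inside the cell it can be cut by arginase 1 (Arg1) to urea and ornithine, which Odc1 turns into the first polyamine, or it can be oxidised by inducible nitric oxide synthase (Nos2) to nitric oxide and citrulline. Ass1 performs the rate-limiting step by which citrulline is recycled to arginine, and Gatm uses arginine and glycine for the first step of creatine synthesis. In tumors, Arg1 and Nos2 of myeloid cells are known for depleting arginine and for restraining T cells, and in mice they are the classical markers of alternative and inflammatory activation of macrophages.

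On the GRCm38 build (GENCODE vM21) all 6 genes are protein-coding, and the identifiers match those of the count tables. Arg1 (ENSMUSG00000019987) lies at chr10:24915221-24927484 on the minus strand, Nos2 (ENSMUSG00000020826) at chr11:78920787-78960254 on the plus strand, and Slc7a2 (ENSMUSG00000031596) at chr8:40862396-40922308 on the plus strand. Ass1 (ENSMUSG00000076441) lies at chr2:31470207-31520672 on the plus strand, Odc1 (ENSMUSG00000011179) at chr12:17544794-17551505 on the plus strand, and Gatm (ENSMUSG00000027199) at chr2:122594467-122611303 on the minus strand. Promoter windows of 300 bases from RefSeq (GRCm38.p6, 250 bases before and 50 after the start of transcription) matched 3 of the 6 members, Ass1, Odc1 and Gatm, and none was matched for Arg1, Nos2 and Slc7a2. Those of Ass1 (chr2:31470020-31470319, plus strand) and Gatm (chr2:122611228-122611527, minus strand) are shown because these genes differed between the libraries in opposite directions. Capitals mark matches on either strand to 5 motifs, namely the GC box GGGCGG, the core of the hypoxia response element ACGTG, the gamma-activated site TTCNNNGAA, the interferon-stimulated response element and the TATA box TATAAA.
Ass1: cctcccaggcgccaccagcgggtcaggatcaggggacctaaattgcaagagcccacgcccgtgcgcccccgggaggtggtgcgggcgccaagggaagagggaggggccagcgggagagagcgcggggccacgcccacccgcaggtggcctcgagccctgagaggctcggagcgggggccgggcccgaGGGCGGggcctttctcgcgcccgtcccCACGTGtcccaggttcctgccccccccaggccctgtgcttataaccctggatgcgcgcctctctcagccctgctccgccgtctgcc
Gatm: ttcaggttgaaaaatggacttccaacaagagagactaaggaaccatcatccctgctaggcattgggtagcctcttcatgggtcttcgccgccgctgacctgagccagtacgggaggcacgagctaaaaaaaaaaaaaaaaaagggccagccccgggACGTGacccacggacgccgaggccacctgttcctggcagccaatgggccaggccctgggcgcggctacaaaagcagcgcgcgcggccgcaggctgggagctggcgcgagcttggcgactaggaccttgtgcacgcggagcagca
The Ass1 window held 1 GC box and 2 overlapping matches to ACGTG on opposite strands, and the Gatm window held 1 match to ACGTG, while the Odc1 window held 4 GC boxes and no ACGTG. None of the 3 windows held the gamma-activated site, the interferon-stimulated response element or the TATA box in these letters. Of 32851 promoter windows of the same length, 35.7% held the GC box, 19.6% ACGTG, 8.30% the gamma-activated site, 3.44% the interferon-stimulated response element and 13.6% the TATA box. The windows of Ass1 and Odc1 were rich in G and C (74% and 78%), against 60.7% for Gatm and a median of 52.7% over all windows.

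Barcodes with at least 1000 UMIs (unique molecular identifiers, each marking 1 captured RNA molecule) numbered 4975 in Control and 3507 in IR, and 4679 and 3410 remained after filters on genes and mitochondrial RNA. The monocyte/macrophage class, defined by marker genes and free of markers of a second lineage, held 2866 Control cells and 1537 IR cells. Within it, cells with more UMIs of 6 monocyte genes (Ccr2, Chil3, Hp, Ly6c2, Ms4a4c, Plac8) than of the 3 complement genes C1qa, C1qb and C1qc formed the monocyte gate, and cells with fewer formed the macrophage gate. The monocyte gate held 697 Control and 1050 IR cells (24.3% and 68.3% of the class) and the macrophage gate 1958 and 380 (68.3% and 24.7%), with 211 and 107 tied cells left undecided. The border was not sharp, since 526 Control and 304 IR cells lay within 1 UMI of it. The gates also differed in content between libraries: the summed level of the 6 monocyte genes within the macrophage gate was 775 CPM (UMIs of a gene or list per 1000000 UMIs of the population) in Control against 1786 CPM in IR, and that of the 3 C1q genes was 8000 and 6806 CPM. RNA of other lineages also differed between the libraries, with NK cell and neutrophil markers higher in IR in both gates and T cell markers only in the monocyte gate. The 6 NK cell markers summed to 83.6 CPM in Control against 186 CPM in IR in the monocyte gate and 78.4 and 163 CPM in the macrophage gate, with all 6 detected in each. The 7 neutrophil markers summed to 75.2 and 146 CPM and to 35.96 and 126 CPM, all detected but Retnlg, which was at 0 in Control monocytes. The 6 T cell markers summed to 205 and 263 CPM and to 231 and 216 CPM. The part of this RNA in the results below was not tested. The libraries shared 7 barcode sequences among those with at least 1000 UMIs.

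The first comparison asked how the level of each gene, in CPM of the summed UMIs of a gate, differed between Control and IR. In both gates Nos2 and Ass1 were higher in IR, Slc7a2 and Gatm were lower, and Odc1 was at the same level within counting error. A gene was called higher or lower when the levels differed by at least 1.5 times and their 95% Poisson intervals did not overlap. By this rule 2 of the 6 members were higher, 2 were lower and 2 were neither in each gate. In the monocyte gate the rule called 3.65% of the 10836 genes tested higher and 3.21% lower, and in the macrophage gate 4.62% of 11654 higher and 6.85% lower. The median log2 ratio of IR over Control was 0.18 for the members against -0.04 for all tested genes in the monocyte gate, and 0.26 against -0.09 in the macrophage gate.

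Slc7a2, the arginine transporter, was at 190 CPM (95% interval 178 to 203) in Control against 73.5 CPM (68.4 to 78.8) in IR in the monocyte gate, which is 2.58 times lower. Macrophages had 343 CPM (335 to 351) in Control against 156 CPM (145 to 168) in IR, 2.19 times lower. The transporter was thus higher in macrophages than in monocytes of the same library and lower in both after IR. When gates were set by Ly6c2 and C1qa alone, the log2 ratio of Slc7a2 in the monocyte gate was -0.31 in place of -1.37 and no longer passed the 1.5-fold limit.

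Arg1, which turns arginine into ornithine, was at 1848 CPM (1810 to 1886) in Control against 2372 CPM (2343 to 2402) in IR in the monocyte gate. The macrophage gate held 2761 CPM (2738 to 2785) in Control against 3890 CPM (3833 to 3948) in IR. The intervals did not overlap in either gate, but the differences, 1.28 and 1.41 times, were below the 1.5-fold limit. The size in the monocyte gate depended on how monocytes were defined: its log2 ratio of 0.36 became 1.28 with gates set by Ly6c2 and C1qa and 0.07 when Ly6c2, Plac8 and Ms4a4c were left out of the gate genes. For macrophages the log2 ratio of 0.49 lay between 0.36 and 0.59 over the 15 alternatives, and averaging over cells in place of summing gave the highest value, just past the 1.5-fold limit.

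Odc1, the next enzyme on the arginase route, was at 147 CPM (136 to 158) in Control against 148 CPM (140 to 155) in IR in the monocyte gate. Macrophages had 159 CPM (153 to 165) and 161 CPM (150 to 173). Its log2 ratios were 0.01 (-0.12 to 0.14) and 0.02 (-0.10 to 0.14), so a difference of either sign within these bounds could not be seen at this depth. Odc1 has processed pseudogenes, so reads shared with them make its level uncertain.

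Nos2, the source of nitric oxide, was at 54.2 CPM (47.9 to 61.2) in Control against 89.3 CPM (83.7 to 95.2) in IR in the monocyte gate, 1.65 times higher. Macrophages had 39.3 CPM (36.6 to 42.3) in Control against 109 CPM (99.2 to 119) in IR, 2.76 times higher. The order of the gates was therefore turned: Nos2 was higher in monocytes in Control (log2 of macrophage over monocyte gate -0.46, -0.67 to -0.26) and higher in macrophages in IR (0.28, 0.12 to 0.44). Without Ly6c2, Plac8 and Ms4a4c among the gate genes, Nos2 in the monocyte gate was only 1.12 times higher in IR (log2 0.17), below the limit, while its log2 ratio in the macrophage gate lay between 1.36 and 1.73 over the 15 alternatives.

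Ass1, which recycles citrulline, was at 264 CPM (250 to 279) in Control against 437 CPM (424 to 450) in IR in the monocyte gate, 1.66 times higher. Its level in macrophages was 155 CPM (149 to 161) in Control against 369 CPM (352 to 387) in IR, 2.38 times higher. Ass1 was higher in monocytes than in macrophages of both libraries, but the gap was 0.77 on the log2 scale in Control and 0.24 in IR.

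Gatm, the creatine synthesis enzyme, was at 212 CPM (199 to 225) in Control against 98.1 CPM (92.2 to 104) in IR in the monocyte gate, 2.16 times lower. Its level in macrophages was 444 CPM (435 to 454) in Control against 124 CPM (114 to 134) in IR, 3.60 times lower. In absolute log2 ratio this was the largest difference of any member in either gate. Its excess in macrophages over monocytes was 1.07 on the log2 scale in Control and 0.33 in IR.

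**Figure D1:**
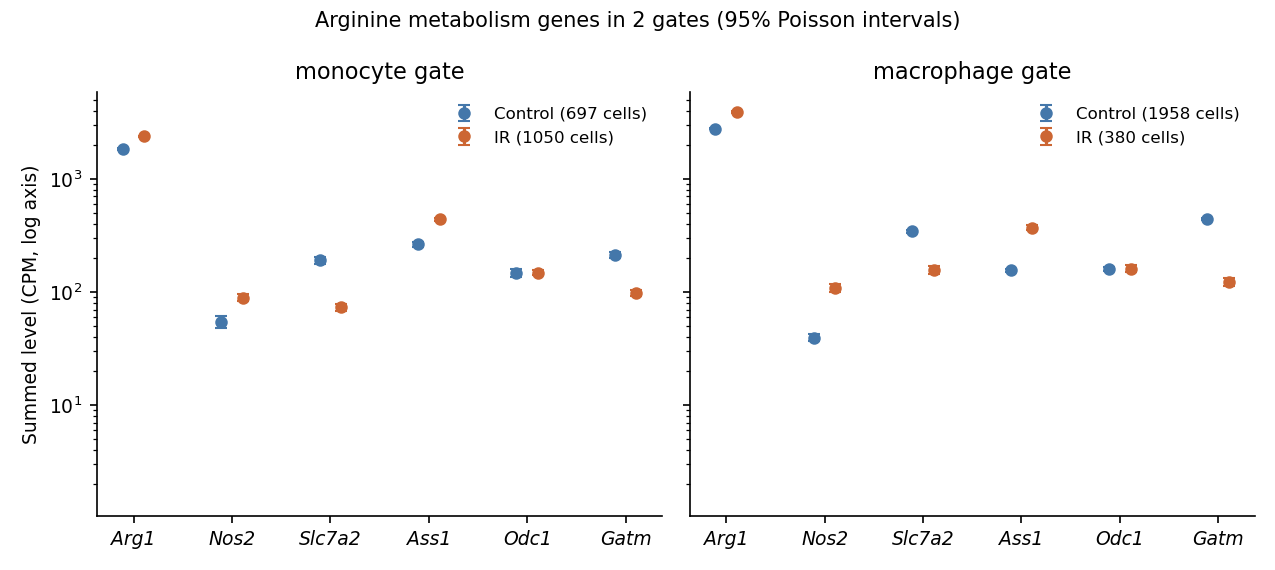
Level of each gene in CPM (log axis) in the monocyte gate (left) and the macrophage gate (right) of the Control and IR libraries; points are summed UMIs of 1 library and bars 95% Poisson intervals, which cover counting error only. Nos2 and Ass1 sit higher and Slc7a2 and Gatm lower in IR in both gates, while the Odc1 points coincide.

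Because the balance of monocytes and macrophages differed, the class as a whole gave other sizes than the gates. The monocyte gate supplied 18.7% of the UMIs of the class in Control and 64.3% in IR. Over the class, Arg1 was at 2590 CPM in Control against 2942 CPM in IR, a log2 ratio of 0.18, which is smaller than in either gate. With the Control levels of the gates and undecided cells weighted by the IR balance, Arg1 would have been lower by 0.25 on the log2 scale, Slc7a2 by 0.37 and Gatm by 0.47, while Nos2 would have been higher by 0.22 and Ass1 by 0.36. The log2 ratios seen over the class were -1.54 for Slc7a2, -1.88 for Gatm, 1.18 for Nos2 and 1.21 for Ass1, so for these 4 genes the balance alone gave the same direction but a smaller size. Over all kept barcodes of any type, Arg1 was at 1827 CPM in Control against 1667 CPM in IR, the opposite direction to both gates. In Control 69.9% of all Arg1 UMIs lay in the macrophage gate and 11.9% in the monocyte gate, and in IR 28.0% and 39.95%.

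Across cell classes the genes fell into different patterns, given here for classes of at least 50 cells. In Control, Arg1 was highest in the macrophage gate and the undecided cells (2761 and 2757 CPM, overlapping), followed by the monocyte gate, with conventional dendritic cells at 421 CPM, T cells at 227 CPM, mature dendritic cells at 139 CPM, NK cells at 70.6 CPM and stromal cells at 8.21 CPM. In IR the undecided cells led with 4239 CPM, ahead of the macrophage gate and the monocyte gate, and neutrophils were at 608 CPM. There, conventional dendritic cells were at 327 CPM, T cells at 308 CPM and NK cells at 184 CPM. Mature dendritic cells were at 167 CPM and stromal cells at 156 CPM. Nos2 was likewise found mainly in monocytes and macrophages: outside them, mixed and unassigned barcodes aside, no class of the Control library was above 11.2 CPM, and in IR neutrophils were at 38.8 CPM (24.3 to 58.7) and every other class at or below 12.1 CPM. Slc7a2 and Gatm were highest in the same cells, and in Control conventional dendritic cells came next. That dendritic class kept barcodes with monocyte/macrophage markers, which summed to 5718 CPM in it in Control, against 14586 CPM in the monocyte gate. The part of such barcodes in its levels was not tested. In mature dendritic cells, which also kept such barcodes, Gatm was at 66.6 CPM in Control against 10.1 CPM in IR. It was lower in IR in T cells (33.8 and 8.36 CPM) and empty droplets (259 and 80.6 CPM) as well. NK cells were at 4.41 and 9.69 CPM, with overlapping intervals. The part of such barcodes and of free RNA in the difference in mature dendritic cells was not tested.

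Ass1 and Odc1 did not share that pattern. Ass1 was as high in mature dendritic cells (264 CPM in Control, 465 CPM in IR) as in the monocyte gate of the same library, with overlapping intervals. It was higher in IR in mature dendritic cells, T cells (57.8 and 115 CPM) and NK cells (9.71 and 32.0 CPM) as well. In conventional dendritic cells it was at 197 and 272 CPM, 1.38 times, below the 1.5-fold limit. Empty droplets were at 151 and 257 CPM, and the part of free RNA in these classes was not tested. Odc1 was highest in T cells, at 468 CPM (441 to 496) in Control against 444 CPM (417 to 472) in IR, and the monocyte and macrophage gates ranked among the lower classes. Mature dendritic cells had the lowest Odc1 in Control, 113 CPM, and were at 68.6 CPM in IR.

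**Figure D2:**
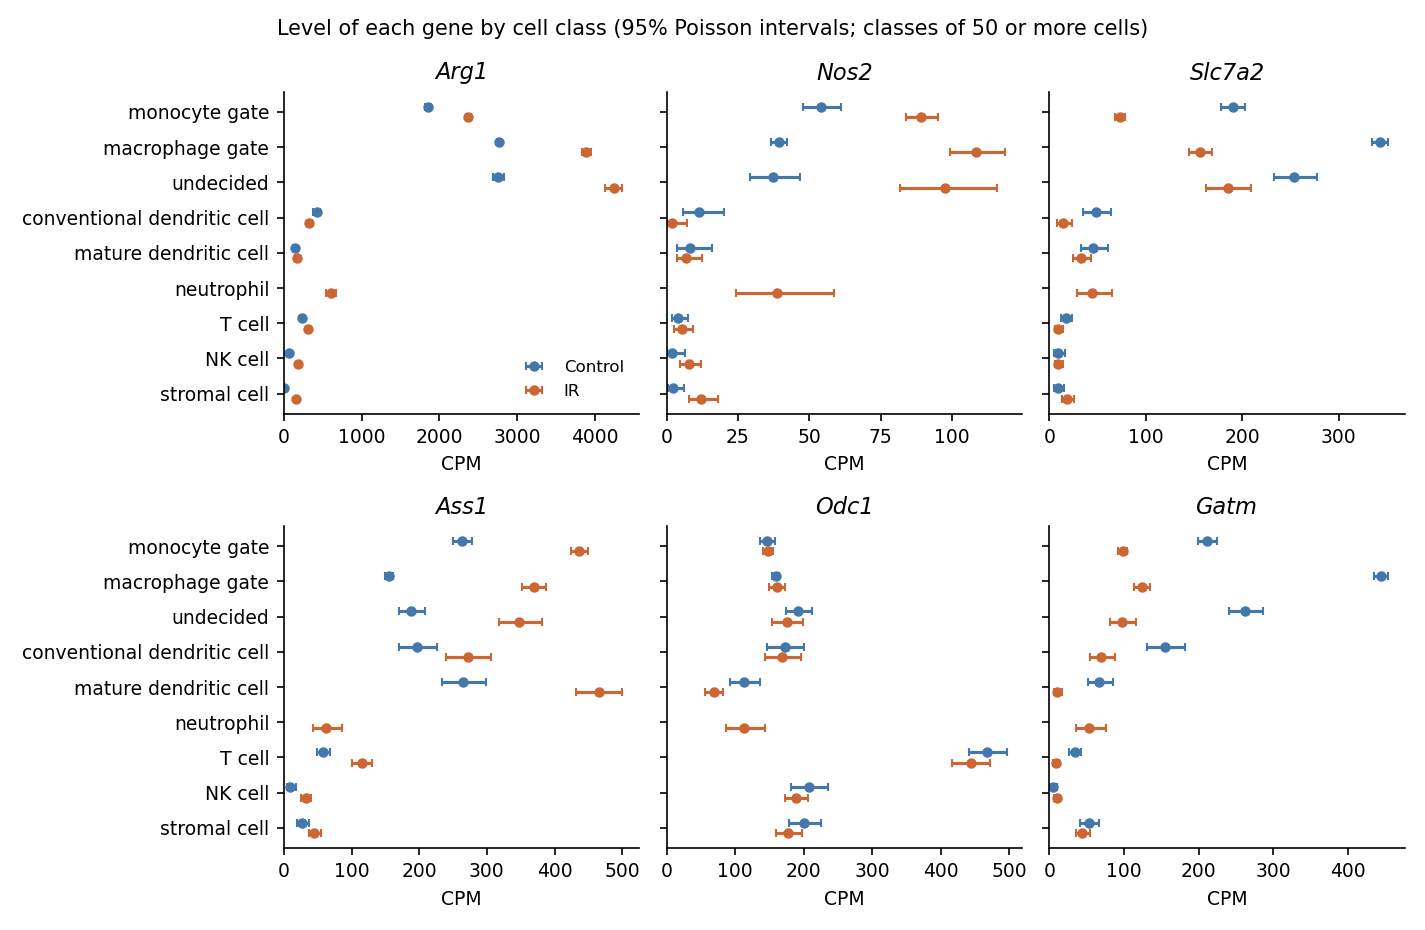
Level of each gene (CPM, linear axis from 0) in the cell classes of the Control and IR libraries, for classes of 50 or more cells, with 95% Poisson intervals; mixed, unassigned and mast cell or basophil barcodes are left out, and Control had too few neutrophils. Arg1, Nos2, Slc7a2 and Gatm are highest in monocytes and macrophages, Ass1 is shared with dendritic cells, and Odc1 is highest in T cells.

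The second comparison asked how many cells carried each RNA. For this, cells were thinned to 3000 UMIs so that depth was equal, which left 589 Control and 945 IR cells in the monocyte gate and 1718 and 334 in the macrophage gate (108, 105, 240 and 46 shallower cells were left out), and a cell was positive with at least 1 UMI. Arg1 was found in most macrophages and in fewer monocytes: 79.3% of Control macrophages (95% exact binomial interval 77.3% to 81.2%) and 87.1% of IR macrophages (83.1% to 90.5%), against 47.0% (42.9% to 51.2%) and 59.0% (55.8% to 62.2%) of monocytes. Nos2-positive cells were a minority, but their share differed between the libraries in both gates. They were 6.45% (4.61% to 8.75%) of Control and 15.7% (13.4% to 18.1%) of IR monocytes, and 6.46% (5.34% to 7.73%) of Control and 18.3% (14.3% to 22.8%) of IR macrophages. Without thinning the shares of Nos2-positive cells were 9.61% and 23.1% in the monocyte gate, and 11.4% and 31.6% in the macrophage gate.

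The other 4 genes followed their levels. Ass1-positive cells were 38.5% of Control and 56.4% of IR monocytes and 26.7% and 54.2% of macrophages, with no overlap of intervals. Gatm-positive cells were 28.2% and 15.6% of monocytes and 53.8% and 23.7% of macrophages. Slc7a2-positive cells were 22.4% and 14.3% of monocytes and 44.6% and 28.4% of macrophages, again without overlap. For Odc1 the shares were 23.4% and 24.0% in monocytes and 29.1% and 25.7% in macrophages, with overlapping intervals.

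NK cells, which should lack Arg1 and Nos2, served here as the background for these droplets. At the same depth 8.82% (4.64% to 14.9%) of Control and 9.52% of IR NK cells (24 of 252) held an Arg1 UMI, and 0.74% (0.02% to 4.03%) and 0.79% (0.10% to 2.84%) held a Nos2 UMI. The shares in both gates were above this background for both genes. As a summed level the background was not equal: Arg1 in NK cells was at 70.6 CPM in Control against 184 CPM in IR. Nos2 in NK cells was at 1.77 CPM (2 UMIs) and 7.82 CPM (21 UMIs), with overlapping intervals. Arg1 in stromal cells was at 8.21 CPM in Control and 156 CPM in IR. The median depth of NK cells before thinning was 4036 UMIs in Control and 5752 in IR, against 5763 and 8410 in the monocyte gate and 8895.5 and 9767 in the macrophage gate. T cells held Arg1 in 17.0% and 15.0% of cells. Free RNA, estimated from empty droplets and the markers of lymphoid, stromal and mast cells, made up between 3.81% and 24.5% of the level of a member in a gate, the highest shares being those of Odc1.

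Arg1 was spread unevenly among cells. The 10% of cells with most Arg1 held 54.8% of its thinned UMIs in Control monocytes, 47.3% in IR monocytes, 37.2% in Control macrophages and 30.9% in IR macrophages. The median macrophage had 5 Arg1 UMIs per 3000 in Control and 8 in IR, and the median monocyte 0 and 2.

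The third comparison asked whether Arg1 and Nos2, which compete for arginine, were found in the same cells. They were, in that most Nos2-positive cells also held Arg1. Of Nos2-positive monocytes, 81.6% (65.7% to 92.3%) did so for Control and 85.1% (78.4% to 90.4%) for IR. Of Nos2-negative monocytes, only 44.6% (40.4% to 48.9%) and 54.2% (50.7% to 57.7%) did. Of Nos2-positive macrophages, 89.2% (81.9% to 94.3%) did so for Control and 96.7% (88.7% to 99.6%) for IR. Most Nos2-negative macrophages held Arg1 as well, 78.7% (76.6% to 80.6%) and 85.0% (80.2% to 89.0%). In IR macrophages the intervals with and without Nos2 overlapped. Cells with both made up 5.26% (3.60% to 7.39%) of Control and 13.3% (11.2% to 15.7%) of IR monocytes. In macrophages they were 5.76% (4.71% to 6.97%) of Control cells against 17.7% (13.7% to 22.2%) of IR cells. The share of double-positive cells was thus higher in IR in both gates, and cells with Nos2 but without Arg1 were rare, between 0.60% and 2.33% of a gate. Doublets were not removed for these shares. Neutrophil markers by Nos2 were at 2.59 times (1.69 to 3.83) in Control and 1.93 times (1.25 to 2.91) in IR macrophages. In monocytes they were at 0.77 (0.33 to 1.55) and 1.44 (1.09 to 1.88). The part of neutrophil RNA in the shares was not tested.

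Nos2 was also more often found in cells with Arg1 than in cells without it. In the monocyte gate 11.2% (7.73% to 15.5%) of Arg1-positive and 2.24% (0.91% to 4.57%) of Arg1-negative Control cells were Nos2-positive. In IR these shares were 22.6% (19.2% to 26.3%) and 5.68% (3.60% to 8.48%). For macrophages they were 7.26% (5.94% to 8.77%) and 3.38% (1.76% to 5.83%) in Control, and 20.3% (15.8% to 25.4%) and 4.65% (0.57% to 15.8%) in IR. The intervals were apart in 3 of the 4 settings and touched in IR macrophages, where only 43 cells lacked Arg1. The size of the contrast in Control varied with the thinning, although Nos2 stayed more frequent in Arg1-positive cells: at 1000 in place of 3000 UMIs per cell, the log2 ratio of the Nos2-positive share in Arg1-positive over Arg1-negative cells was 0.75 in place of 2.32 in monocytes and 1.955 in place of 1.10 in macrophages. Another random draw of 3000 UMIs gave 1.83 and 0.69. The product of the separate shares, which independent detection would give, was 3.03% in Control and 9.25% in IR monocytes, below the shares seen by 1.73 and 1.44 times. In macrophages, where most cells held Arg1, the excess was 1.12 times in Control and 1.11 times in IR. Before thinning, Arg1-positive cells of 3 settings had more UMIs than Arg1-negative ones, for example 7957 against 5797 (median) in Control monocytes, while in IR macrophages they had fewer, 11099 against 12196.

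**Figure D3:**
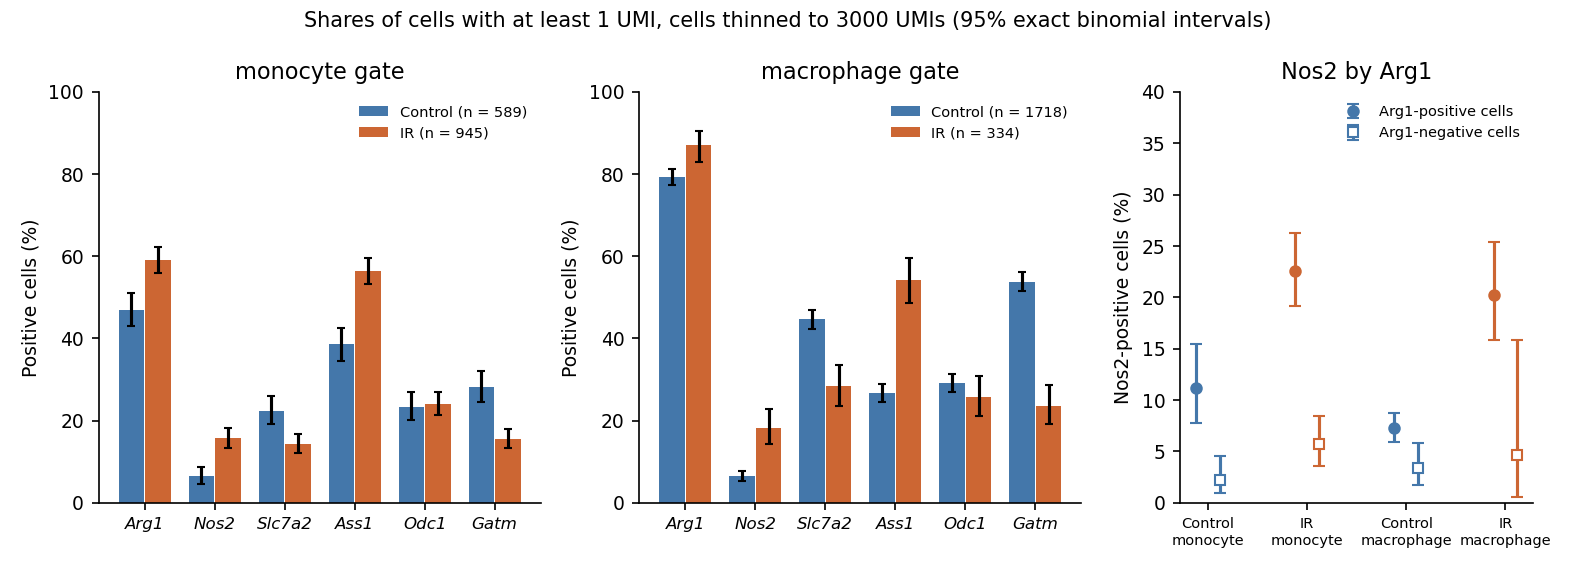
Share of cells with at least 1 UMI of each gene in the monocyte gate (left) and macrophage gate (middle), and share of Nos2-positive cells among Arg1-positive (filled) and Arg1-negative (open) cells (right), all in percent after thinning to 3000 UMIs, with 95% exact binomial intervals. Nos2-positive cells are more frequent in IR in both gates and among Arg1-positive cells in each gate and library, although the intervals touch in IR macrophages.

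Cells with Arg1 or Nos2 also differed in their other arginine genes, counted at the same thinned depth. Slc7a2 followed Arg1. Its mean UMIs were 7.02 times higher (4.87 to 10.4) in Arg1-positive than in Arg1-negative Control monocytes. They were 4.08 times higher in Control macrophages (1.26 against 0.31 UMIs per cell), and in IR 3.81 times (2.57 to 5.83) and 3.67 times (1.65 to 10.2). Slc7a2 was also higher in Nos2-positive cells, by 1.66 to 2.22 times over the 4 settings, with each interval above 1. Gatm was higher in Arg1-positive monocytes, 3.74 times (2.91 to 4.84) for Control and 2.35 times (1.73 to 3.23) for IR. In Control macrophages its ratio by Arg1 was 1.56 (1.38 to 1.75). In IR macrophages the interval included 1, at 0.75 (0.46 to 1.29). Ass1 did not follow Arg1: its ratios lay between 0.91 and 1.11 with intervals that included 1 in 3 settings, and it was lower in Arg1-positive IR macrophages, 0.73 (0.56 to 0.98). Odc1, the next step after Arg1, was higher in Arg1-positive monocytes of Control, 1.34 times (1.03 to 1.74), and of IR, 1.64 times (1.29 to 2.09). It was lower in Arg1-positive IR macrophages, 0.46 times (0.32 to 0.70), where only 43 cells lacked Arg1. T cell and NK cell markers by Arg1 were at 2.07 times (1.78 to 2.43) in IR monocytes and 0.67 times (0.49 to 0.93) in IR macrophages. In Control they were at 0.95 (0.78 to 1.17) and 0.80 (0.71 to 0.91). Cycling genes were at 0.37 times (0.27 to 0.50) in Arg1-positive IR macrophages. The part of these differences in the Odc1 ratios was not tested. Ass1 followed Nos2 in Control, where it was 3.34 times higher (2.63 to 4.20) in Nos2-positive monocytes and 2.45 times higher (1.98 to 3.02) in Nos2-positive macrophages. In IR the ratio for Ass1 by Nos2 was 1.28 (1.11 to 1.47) in monocytes and 1.25 (0.97 to 1.61) in macrophages. By Nos2, each of the 4 intervals for Odc1 included 1.

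Both gates were next divided by gene sets other than those of arginine metabolism, each cell being called high or not at an equal depth of 1000 UMIs. These divisions overlap, and each is a cut through a range: between 3.81% and 40.5% of a gate lay within 1 UMI of a cut. Cells high in the matrix and tumor macrophage genes Mmp12, Mmp13, Mmp14 and Spp1 carried more Arg1 and more Slc7a2 than the rest of their gate in both libraries. Arg1 in macrophages was at 4464 CPM in these cells against 1908 CPM in the rest in Control, and at 5060 against 2624 CPM in IR. In monocytes it was at 4857 against 1086 CPM in Control and at 4416 against 1348 CPM in IR. The log2 differences for Slc7a2 were 2.13 and 1.34 in monocytes and 1.17 and 1.06 in macrophages of Control and IR.

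Cells high in hypoxia-response genes (such as Bnip3, Hilpda, Ndrg1 and Vegfa) carried more Nos2 than the rest of their gate in both libraries. Nos2 in monocytes was at 123 CPM in these cells against 31.4 CPM in the rest in Control, and at 202 against 48.7 CPM in IR. In macrophages it was at 73.6 against 29.7 CPM in Control and at 199 against 73.2 CPM in IR. The ratios were alike in the libraries, 3.91 and 4.15 times in monocytes and 2.48 and 2.72 times in macrophages, while the level of both hypoxia-high and other cells was higher in IR. Arg1 was also higher in hypoxia-high cells, by 1.23 and 1.13 on the log2 scale in monocytes and 0.87 and 0.57 in macrophages of Control and IR.

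Cells high in MHC class II genes, which present antigen to helper T cells, carried less Arg1 and more Ass1. In macrophages Arg1 was at 2370 CPM in MHC class II-high cells against 4061 CPM in the rest in Control, and at 2350 against 5493 CPM in IR. In monocytes it was at 1659 against 2069 CPM in Control and at 1646 against 2826 CPM in IR. Ass1 was 1.64 times higher in the MHC class II-high macrophages of Control and 1.73 times in IR, and 1.72 and 1.52 times in monocytes.

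Cells high in interferon-stimulated genes (such as Isg15, Ifit1 and Rsad2) differed between the libraries. In Control they carried less Arg1 than the rest, 865 against 1966 CPM in monocytes and 1360 against 2822 CPM in macrophages. In IR they carried 2556 against 2257 CPM in monocytes and 3530 against 4068 CPM in macrophages. The deficit of Arg1 in interferon-high cells was therefore 1.18 and 1.05 on the log2 scale in Control, and in IR it was 0.20 in macrophages and absent in monocytes, where these cells were higher by 0.18. Some further subsets reached 50 cells in the Control macrophage gate but not in that of IR. Lyve1 Folr2 resident-like macrophages (364 cells) had 64.4 CPM of Ass1 against 170.5 CPM in the rest. Cycling macrophages (273 cells) had 675 CPM of Gatm, 1.71 times more than the rest. Macrophages high in Clec5a, Fcgr4, Gpr84 and Saa3 (87 cells) had 116 CPM of Nos2, 3.24 times more than the rest.

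**Figure D4:**
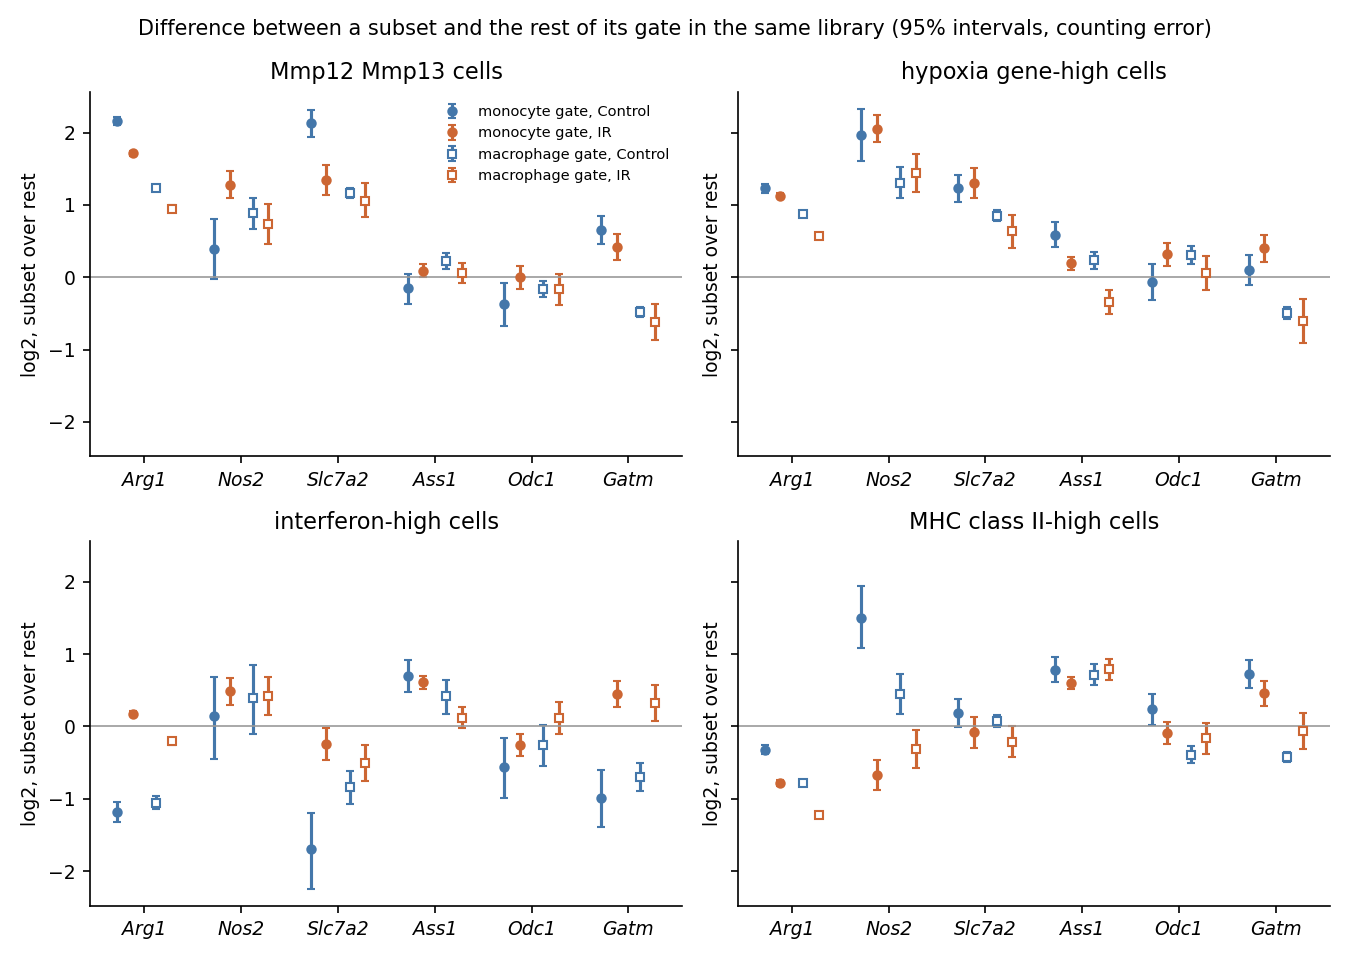
Difference of each gene between a subset and the rest of its gate in the same library, as log2 of summed CPM, for 4 overlapping subsets (panels), 2 gates (filled circle monocyte, open square macrophage) and 2 libraries (blue Control, orange IR), with 95% intervals from counting error. Arg1 and Slc7a2 are above 0 in Mmp12 Mmp13-high cells and Nos2 in hypoxia gene-high cells in every gate and library, whereas Arg1 in interferon-high cells is about 1 below 0 only in Control.

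The libraries were also compared within each subset, although a fixed cut does not match the cells of a subset between libraries. The share of the gate that was interferon-high was 11.8% in Control and 40.8% in IR for monocytes and 5.06% and 34.2% for macrophages. The share that was Mmp12 Mmp13-high was 17.5% and 30.6%, and 31.7% and 50%. The MHC class II-high share was lower in IR, 47.2% and 33.3% of monocytes and 73.3% and 48.4% of macrophages. Within MHC class II-high cells the level of Arg1 did not differ beyond counting error between the libraries, with a log2 ratio of -0.01 (-0.07 to 0.04) in monocytes and -0.01 (-0.05 to 0.03) in macrophages, while in the remaining cells it was higher in IR by 0.45 and 0.44. Within interferon-high cells Arg1 was higher in IR by 1.56 (1.43 to 1.70) in monocytes and 1.38 (1.28 to 1.47) in macrophages. In Mmp12 Mmp13-high monocytes it was slightly lower in IR, by 0.14 on the log2 scale.

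Within the macrophage gate, Gatm, Ass1 and Nos2 behaved more evenly than Arg1 across the subsets. In macrophages Gatm was lower in IR by 0.97 to 1.90 on the log2 scale within all 4 of these subsets, and Nos2 and Ass1 were higher in IR in each of them, Nos2 by 1.21 to 1.44 and Ass1 by 0.82 to 1.45. In monocytes Gatm was lower by 0.91 to 1.34 in 3 subsets but not in interferon-high cells, where it was at 113 CPM in Control against 118 CPM in IR with overlapping intervals. Slc7a2 in interferon-high monocytes was likewise at 63.2 and 66.1 CPM, with overlapping intervals. Nos2 in MHC class II-high monocytes was at 77.2 CPM in Control against 65.4 CPM in IR, with overlapping intervals, while it was at 27.2 and 104 CPM in the other monocytes.

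Along the range from monocyte to macrophage, measured by the C1q share of the UMIs of the gate genes, the levels did not all run one way. In IR, Arg1 was at 2300 CPM in cells without C1q and at 4016 CPM in the last of 5 bins, with the largest C1q share, with a lower value, 1970 CPM, in the second bin. In Control it was at 1588 CPM in the first bin and 2852 CPM in the last, but at 2825 CPM in the second bin of 91 cells. Gatm was at 192 CPM in the first and 467 CPM in the last bin of Control, each bin higher than the one before, and in IR it was at 82.1 and 119 CPM. Ass1 was at 288 and 153 CPM at the ends of the range in Control and at 451 and 362 CPM in IR. In each bin Nos2 was higher in IR than in Control with 1 exception, the second bin, where it was at 71.4 CPM in Control against 47.2 CPM in IR with overlapping intervals.

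**Figure D5:**
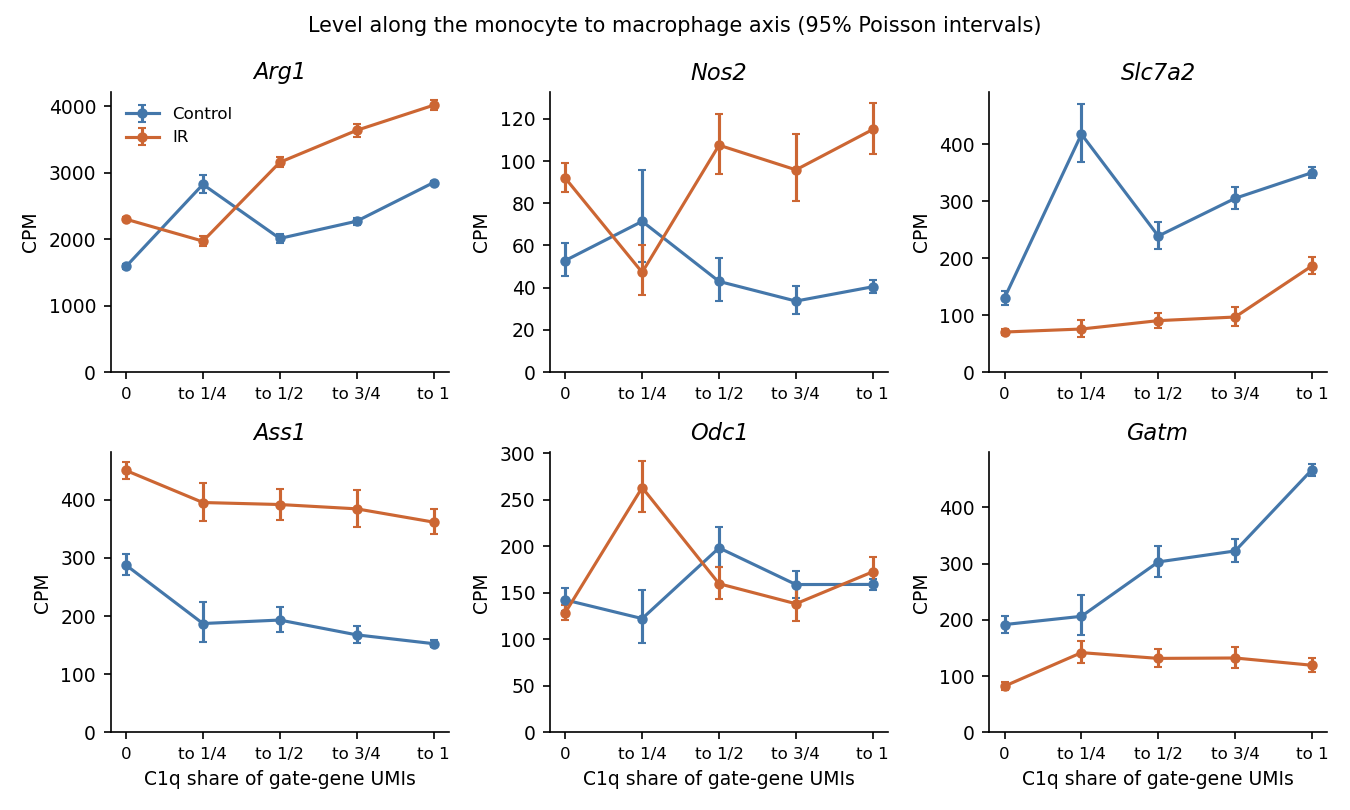
Level of each gene (CPM, axis from 0) in 5 bins of the C1q share of gate-gene UMIs, from cells without C1q UMIs to cells with the largest share, with 95% Poisson intervals. The Ass1 line of IR lies above that of Control, and the Gatm and Slc7a2 lines of IR below those of Control, in every bin.

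The remaining genes of arginine, polyamine and creatine metabolism give the context of the 6. Of 54 such genes in the tables, 38 had enough UMIs to be compared in the monocyte gate (at least 20 over both libraries), of which 3 were higher in IR, 2 lower and 33 neither. In the macrophage gate 40 were compared, of which 3 were higher, 4 lower and 33 neither. Of all genes tested, the rule called 3.65% higher and 3.21% lower in the monocyte gate. In the macrophage gate it called 4.62% higher and 6.85% lower. The median log2 ratio of these pathway genes was -0.08 in the monocyte gate and -0.06 in the macrophage gate, close to that of all genes. The same 3 genes were higher in both gates. Arg2, the mitochondrial arginase, was at 21.0 CPM in Control against 42.3 CPM in IR in monocytes and at 11.1 and 28.4 CPM in macrophages. Gch1, which makes the first intermediate of tetrahydrobiopterin, the cofactor of Nos2, was at 134 and 212 CPM in monocytes and at 69.3 and 113 CPM in macrophages. Smox, which oxidises spermine back to spermidine, was at 162 and 245 CPM in monocytes and at 80.7 and 155 CPM in macrophages.

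Qdpr, which regenerates tetrahydrobiopterin, was lower in IR in both gates, at 42.5 and 22.2 CPM in monocytes and 61.1 and 31.9 CPM in macrophages. Srm, the spermidine synthase, was lower in monocytes (36.8 and 23.7 CPM). In macrophages, Oat, which takes ornithine towards proline and glutamate, was at 53.9 CPM in Control against 34.8 CPM in IR, Paox, an oxidase of acetylated polyamines, was at 20.1 and 8.59 CPM, and Sat2 had 27 UMIs in Control and 0 in IR. Of the 5 other amino acid carriers with enough UMIs, among them Slc7a1 and Slc3a2, none passed the rule in either gate, unlike Slc7a2. Asl, which completes the recycling of citrulline after Ass1, was at 40.9 CPM in Control against 41.3 CPM in IR in monocytes and at 38.6 and 38.8 CPM in macrophages, with overlapping intervals. The liver urea cycle genes Otc and Cps1 had no UMI in either gate, as did the kidney and liver gene Agmat. Amd1 and Amd2 are near copies, so their counts are uncertain.

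Over 16 points (populations of both libraries, which share depth and free RNA), genes most like Arg1 by Pearson correlation of log2(CPM + 10), among 3165 genes, included Msr1 (0.94), Cd36 (0.94), Sirpb1c (0.93) and Trem2 (0.93). For Nos2 they were Alas1 (0.93), Sirpb1c (0.91), Bst1 (0.91), Cd36 (0.90) and Cndp2 (0.90), and for Gatm Cltc (0.91), Soat1 (0.91), Hexa (0.91), Pltp (0.90) and Fn1 (0.90). Among the members themselves, Arg1 was most like Nos2 (0.88) and Slc7a2 (0.86), and Odc1 was like none of the others (-0.12 to 0.08). These values describe the populations and carry no test.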

How the data were processed

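CD45+ cells of MC38 tumors were profiled by 3' droplet sequencing (10x Chromium), with 1 Control and 1 IR library (48593879 and 42406461 UMIs). The authors deposited unfiltered UMI counts per gene and barcode, made with Cell Ranger on mm10. The submitters' notes name version 6.0.1, the matrix headers version 4. Doublets, which the study took out with DoubletFinder, were not called for the main values.

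Barcodes with at least 1000 UMIs, 200 genes and at most 25% mitochondrial UMIs were kept and thinned to 1000 UMIs. The monocyte/macrophage class needed 5 UMIs of its markers and fewer than 3 of any other lineage. Conventional dendritic cells were called on unthinned UMIs, at 3 or more and a minimum share of the barcode. Barcodes of mixed lineage were left out, but those with dendritic and monocyte/macrophage markers and no other lineage stayed in the dendritic classes. Subsets needed 2 UMIs of their genes (3 for Mmp12 Mmp13, 10 for MHC class II). Positive shares used cells thinned to 3000 UMIs. Cut-offs were set on marker UMIs after the files were read. Barcodes of low rank by UMIs, far below the cells, served as empty droplets. UMIs were summed per library and population and expressed as CPM. Intervals are exact Poisson, exact conditional (ratios) or Clopper-Pearson, at 95%, and cover counting error only. A single library per group allows no p-value. Free and intracellular RNA share the droplets, and a lower level per cell population cannot be told apart from a change in which cells were sampled.

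The members and gene lists were chosen with earlier results of these data known. The text names all 6 members, up to 4 other pathway genes per direction and gate past the rule, and the 5 genes most like each of Arg1, Nos2 and Gatm, except 1 item that is not reported here. The call rule was tested on simulated sums. Alternatives covered filters, gates, scaling (edgeR 4.0.16 TMM, median of ratios), free RNA, doublets (Scrublet in scanpy 1.11.5), thinning depth and the rule itself. Sequences are from RefSeq (GRCm38.p6) and positions from GENCODE vM21.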

Additional observations from a re-analysis of the deposited data

Results flagged for a closer look

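Several differences between a subset and the rest of its gate had opposite signs in the 2 libraries, with intervals on either side of 0. With 1 library per group these differences between Control and IR were not tested. Nos2 in MHC class II-high monocytes was higher than in the rest by 1.503 on the log2 scale in Control and stood at -0.67 in IR. In the macrophage gate the same contrast was 0.44 in Control and -0.31 in IR. Arg1 in interferon-high monocytes was at -1.18 against the rest in Control and at 0.18 in IR. Gatm in interferon-high cells was at -0.99 in Control and 0.45 in IR in the monocyte gate, and at -0.69 and 0.33 in the macrophage gate. Ass1 in hypoxia gene-high macrophages was at 0.23 in Control and -0.34 in IR.

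Empty droplets, which served only to estimate and subtract free RNA, carried RNA of all 6 members, and for 4 of them it differed between the libraries in the direction seen in both gates. Nos2 was at 20.1 CPM (13.8 to 28.2, 33 UMIs) in Control droplets and 56.1 CPM (43.0 to 72.0, 62 UMIs) in IR droplets. Ass1 was at 151 CPM (133 to 171) and 257 CPM (228 to 289). Slc7a2 (124 and 66.1 CPM) and Gatm (259 and 80.6 CPM) were lower in IR, and Arg1 (1270 and 1213 CPM) and Odc1 (232 and 211 CPM) had overlapping intervals.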

How the results depend on the processing

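No paired analysis was possible because each group held a single library. Of 180 alternative log2 ratios of IR over Control (12 member ratios, 15 alternatives each), 140 stayed within the 95% interval of the ratio in the report and 40 moved outside it. Each ratio but those of Odc1 kept its sign under all 15 alternatives. Where a ratio moved, the cause was not tested. One alternative, keeping barcodes of mixed lineage, was chosen after seeing the data, and under it all 12 ratios stayed within their intervals.

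With gates set by Ly6c2 and C1qa, the monocyte gate gave 1.28 for Arg1, 0.97 for Nos2, -0.31 for Slc7a2 and -0.66 for Gatm, and the macrophage gate 0.44 for Arg1 and 1.73 for Nos2. Without Ly6c2, Plac8 and Ms4a4c in the gate, monocytes gave 0.074 for Arg1, 0.17 for Nos2 and -1.71 for Slc7a2, and macrophages 0.36 for Arg1 and -1.35 for Slc7a2. A mean over cells gave 0.56 for Arg1 and -1.14 for Slc7a2 in monocytes, and 0.59 for Arg1, -1.25 for Slc7a2, 1.40 for Ass1 and -1.72 for Gatm in macrophages. For Arg1 in monocytes, TMM gave 0.41, median-of-ratios scaling 0.42, totals without mitochondrial and ribosomal genes 0.29 and subtraction of free RNA 0.40. For Arg1 in macrophages, TMM gave 0.53, median-of-ratios scaling 0.54, totals without mitochondrial and ribosomal genes 0.41, removal of the 6% highest Scrublet scores 0.46, removal of cycling cells 0.42 and a mitochondrial limit of 10% gave 0.56. For Nos2 in monocytes, a minimum of 2000 UMIs gave 0.96, gates drawn at 2000 UMIs 1.16, the mitochondrial limit 1.02, removal of the 6% of barcodes with most UMIs 1.05 and removal of cycling cells 1.003. A minimum of 500 UMIs gave 0.97 for Ass1, -0.14 for Odc1 and -1.30 for Gatm in monocytes and -2.03 for Gatm in macrophages, and a minimum of 2000 UMIs gave -0.16 for Odc1 in monocytes. Gatm in monocytes was at -1.28 with gates drawn at 2000 UMIs and at -1.33 with the mitochondrial limit, and in macrophages at -1.67 without cycling cells.

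At a limit of 2 times in place of 1.5, the other pathway genes called higher numbered 1 in each gate in place of 3, and those called lower 0 in monocytes and 2 in macrophages in place of 2 and 4. With the fold taken on log2(CPM + 10), 1 was lower in monocytes and 2 in macrophages. TMM and median-of-ratios scaling each left 1 lower in monocytes. The share of all genes called was not computed under these alternatives. Thinned to 1000 UMIs, the log2 ratio of the Nos2-positive share in Arg1-positive over Arg1-negative Control cells was 0.75 in monocytes in place of 2.32, and 1.955 in macrophages in place of 1.10. Of 72 alternative shares of positive cells 15 moved, and the sign changed for Odc1 only. Depth limits Nos2 most, with 264 UMIs in Control monocytes.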
